A study of Homo sapiens with 6 samples.

Results

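Interferon-stimulated genes and the genes that sense foreign nucleic acid were followed in Jurkat, a leukaemic line of human T lymphocytes. The group was a list of 42 genes chosen by symbol. It held antiviral effectors, interferon-inducible (IFI, IFIT and IFITM) families, and the OAS, PKR and ADAR genes of the double-stranded RNA response. It also held interferon regulatory factors with STAT2, and the RNA and DNA sensors with their adaptors. All 42 were found among the 60856 rows of the deposited tables, and each is annotated as protein-coding in GENCODE v29 (GRCh38). RNA sequencing libraries came from 3 samples that received 1 µM bisphenol AF (BPAF), which is bisphenol A with fluorinated methyl groups, and from 3 that received the vehicle, 0.1% dimethyl sulfoxide (DMSO). All 6 samples carry the genotype label WT, the design text calls the samples of a group biological replicates, and the labels do not say whether the BPAF medium also held the vehicle. The sample labels give an exposure of 12 h and the treatment protocol one of 24 h.

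Cells detect viral or misplaced nucleic acid through receptors such as RIG-I and MDA5, which bind double-stranded RNA and signal through MAVS, and cGAS, which binds cytosolic DNA and signals through STING. Both routes lead to the kinase TBK1 and to IRF3 and IRF7, which switch on interferon genes. Secreted interferon then acts through its receptor and JAK kinases on a complex of STAT proteins with IRF9, which binds the interferon-stimulated response element (ISRE) in the promoters of the effector genes. The series title places BPAF in an inflammatory response, and these genes are a standard readout of one arm of innate immunity.

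Promoter sequences are shown first because the ISRE is the element through which interferon acts on many of these genes. RefSeq promoter windows (GRCh38.p14, from 250 bases before to 50 after a transcription start) were available for 31 of the 42 genes, as 40 windows. The ISRE core was searched as GAAA, any 2 bases and GAAA again, on both strands, with overlapping matches counted. A match needed exactly 2 bases between, so GAAACGAAA and GAAATGAAA were not counted. Among genes without the core as searched, a window of IFI16 and those of OAS1 and RIGI hold GAAACGAAA, and that of IFI35 holds GAAATGAAA. Among genes with it, OAS3 also holds GAAACGAAA, and a window of MX1 holds both forms on the other strand. The core as searched was found for 18 of the 31 genes, 58.1%, against 4.38% of all 27305 genes in the promoter table. The core of the gamma-activated site, TTCNNNGAA, was found for 9 of the 31 genes, 29%, against 9.38% of all genes. The stretches below run from the start of a window to before the first exon annotated in GENCODE v29, so they are not exonic on that strand. Those of ISG15, IFI44L and IFI16 lie in introns of longer annotated transcripts, and that of IFIT1 lies upstream of the gene. Of them 3 hold ISRE cores, in capitals, and belong to genes near the top, near the bottom and at the bottom of the range of expression. The fourth, of IFI16, is from the gene with the lowest p among the 38 of these genes that were tested. IFI16 has no ISRE core as searched in this window or its other one, but the stretch shown holds GAAACGAAA.
ISG15 (chr1:1013247-1013422, plus strand): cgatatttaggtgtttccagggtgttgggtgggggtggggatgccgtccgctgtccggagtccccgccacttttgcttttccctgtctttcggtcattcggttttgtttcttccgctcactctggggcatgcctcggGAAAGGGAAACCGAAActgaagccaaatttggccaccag
IFIT1 (chr10:89392373-89392545, plus strand): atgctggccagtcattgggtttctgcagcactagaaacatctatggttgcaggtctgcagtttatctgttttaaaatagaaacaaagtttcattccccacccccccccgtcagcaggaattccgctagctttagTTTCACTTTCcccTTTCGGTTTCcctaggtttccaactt
IFI44L (chr1:78620198-78620374, plus strand): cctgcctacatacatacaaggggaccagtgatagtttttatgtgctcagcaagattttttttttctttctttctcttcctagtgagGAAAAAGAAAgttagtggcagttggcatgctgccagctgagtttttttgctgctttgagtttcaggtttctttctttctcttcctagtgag
IFI16 (chr1:159009657-159009891, plus strand): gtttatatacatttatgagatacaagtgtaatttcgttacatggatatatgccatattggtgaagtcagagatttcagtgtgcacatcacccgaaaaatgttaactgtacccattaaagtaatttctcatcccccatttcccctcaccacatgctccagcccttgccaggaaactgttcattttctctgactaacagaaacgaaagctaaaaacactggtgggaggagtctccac
In ISG15 a pair of overlapping cores forms the run GAAAGGGAAACCGAAA, which begins 113 bases upstream of the RefSeq start. IFIT1 has TTTCACTTTC and TTTCGGTTTC, the same core read on the other strand, beginning 116 and 103 bases upstream. IFI44L has GAAAAAGAAA at 164 bases upstream, as shown, and again at 73 bases, past the end of the stretch. These matches are letters in a window, not measured binding sites.

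BPAF libraries held 20253656 to 22617613 counts after rounding, and DMSO libraries 20745097 to 22117976. The cells carried the transcripts of their label: 12 T cell markers summed to 4080 to 4220 TPM in BPAF and 3940 to 4170 TPM in DMSO libraries. The 7 myeloid markers summed to 0.93 to 1.53 TPM in BPAF and 0.6 to 1.17 TPM in DMSO libraries, and the NK cell markers NCR1 and KLRF1 and the epithelial markers EPCAM and CDH1 had no count in any library. The 5 B cell markers summed to 19.6 to 22.8 TPM in BPAF and 21.1 to 24.6 TPM in DMSO libraries, nearly all of it from CD79A. NKG7 held most of the NK cell marker sum (2.39 to 5.3 TPM in BPAF, 2.07 to 2.61 TPM in DMSO), and the 6 fibroblast or epithelial markers summed to 2.5 to 3.02 TPM in BPAF and 1.88 to 2.18 TPM in DMSO libraries. Any part of these other cell types in the results was not tested. In bulk RNA, fewer cells with a transcript and less of it per cell cannot be told apart.

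Interferon genes themselves had almost no counts. Of 21 interferon genes (13 of them type I alpha genes, with IFNB1, IFNW1, IFNE, IFNK, IFNG and the lambda genes IFNL1, IFNL2 and IFNL3), 19, 20 and 21 had no count in the 3 BPAF libraries, and all 21 had none in each DMSO library. The few counts were 1 of IFNK and 1 of IFNL3 in BPAF replicate 1 and 1 of IFNL3 in BPAF replicate 2. A count of 0 allows a level of up to 0.133 to 0.148 CPM (counts scaled to library size) in a BPAF library and 0.136 to 0.145 CPM in a DMSO library, a limit of 3 counts that covers counting error only. The receptor side was transcribed in both groups. IFNAR1 averaged 20.2 ± 1.18 TPM in BPAF and 18.8 ± 1.41 TPM in DMSO, IFNAR2 averaged 36.6 ± 2.77 TPM in BPAF and 37.2 ± 2.83 TPM in DMSO, and the kinase gene TYK2 averaged 130 ± 13.1 TPM in BPAF and 111.0 ± 13.9 TPM in DMSO (SD, n = 3 each). IFNLR1, which encodes the lambda interferon receptor chain, was low at 0.117 ± 0.0839 TPM in BPAF and 0.317 ± 0.225 TPM in DMSO.

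Mean expression of the 42 genes ran from 0.043 to 266.9 TPM in BPAF and from 0.02 to 270.4 TPM in DMSO libraries, in cells for which the labels record no added interferon. TPM is by definition scaled for transcript length, and is used here to set levels side by side between genes. How the deposited values were calculated is not stated, and similar counts did not always give similar TPM. TBK1 had 1065.62 estimated counts in BPAF replicate 1 and 1051.22 in BPAF replicate 3, but 51.9 and 35.1 TPM. Orders of genes by level are therefore approximate. In both groups 3 genes averaged at least 100 TPM and 19 lay between 10 and 100 TPM. A further 14 in BPAF and 13 in DMSO lay between 1 and 10 TPM, and 6 in BPAF and 7 in DMSO were under 1 TPM. IFI16, which encodes a DNA-binding protein of the nucleus and cytosol, was the highest, at 265, 265 and 270.1 TPM in BPAF and 269, 272 and 269.9 TPM in DMSO libraries. ISG15, a ubiquitin-like modifier of other proteins, stood at 171, 168 and 157 TPM in BPAF and 161, 181 and 163 TPM in DMSO libraries. ADAR, the adenosine deaminase that edits double-stranded RNA, had 128, 128 and 137 TPM in BPAF and 121, 125 and 114 TPM in DMSO libraries.

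**Figure D1:**
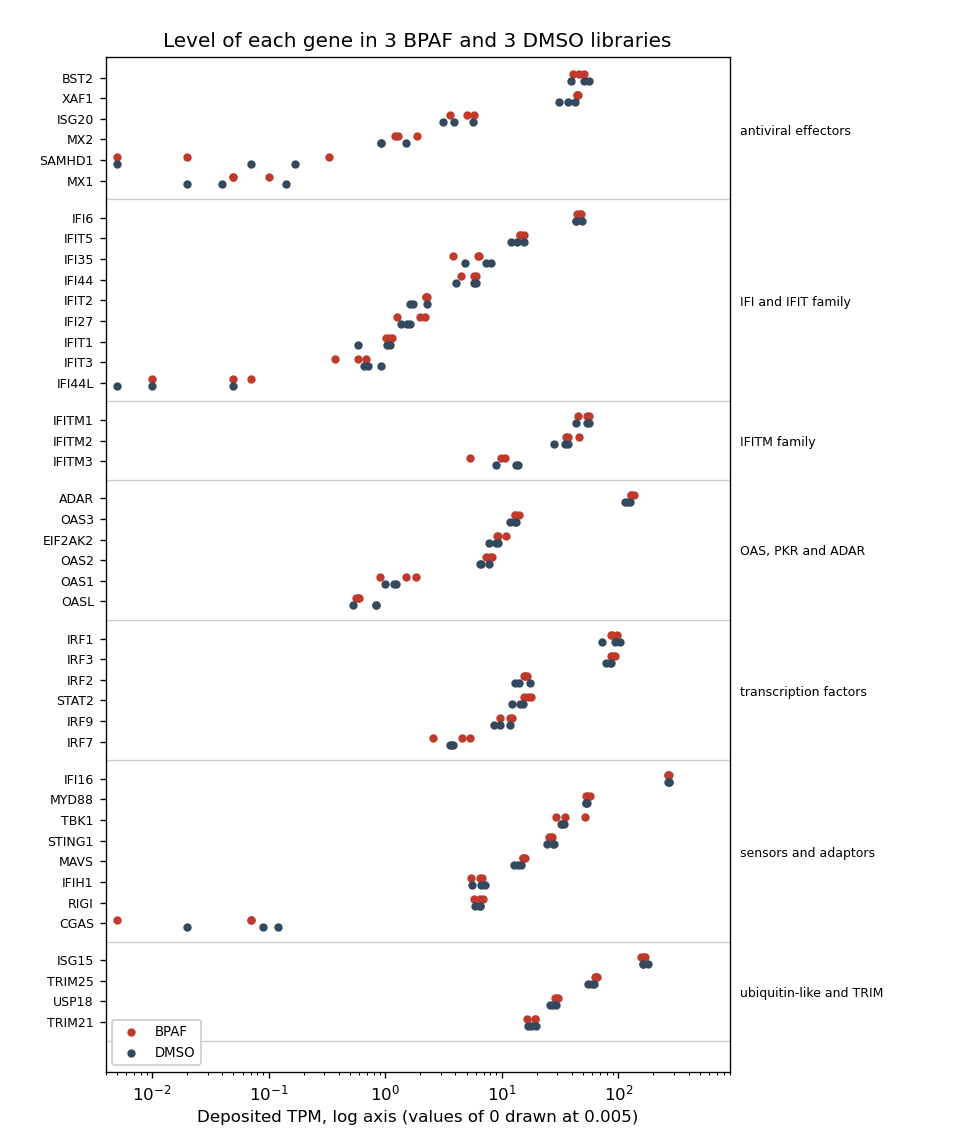
Deposited TPM (log axis) of each of the 42 genes, grouped by role, with 3 BPAF libraries in red above 3 DMSO libraries in blue-grey; each point is 1 library and values of 0 are drawn at 0.005. IFI16, ISG15 and ADAR lie above 100 TPM in all 6 libraries, and SAMHD1, MX1, CGAS and IFI44L lie at or below 0.33 TPM in all 6.

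At the other end, 4 genes had too few counts to be tested. MX1, an interferon-induced GTPase that blocks influenza virus, had 4.06, 4.00 and 4.17 estimated counts in BPAF and 3.89, 2.00 and 10.25 in DMSO libraries. SAMHD1, a dNTP hydrolase that restricts HIV in resting cells, had 10, 1 and 0 counts in BPAF and 0, 4.15 and 11 in DMSO libraries. CGAS, the cytosolic DNA sensor, had 3.10, 3.00 and 0 estimated counts in BPAF and 3.31, 4.00 and 0.78 in DMSO libraries. IFI44L had 1, 1 and 3 counts in BPAF and 1, 1 and 0 in DMSO libraries. The groups overlapped in all 4 genes, and no fold change is given for them. By contrast STING1, which encodes the adaptor that cGAS signals through, was at 26.1 ± 0.752 TPM in BPAF and 26.7 ± 1.91 TPM in DMSO.

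Genes that neighbour each other differed widely in level. The IFIT cluster on chromosome 10 (89283694 to 89421001) holds 4 genes of the list. IFIT5 was at 14.8 ± 0.787 TPM in BPAF and 13.6 ± 1.73 TPM in DMSO, the highest of the cluster. IFIT2 was at 2.25 ± 0.0252 TPM in BPAF and 1.89 ± 0.35 TPM in DMSO, and IFIT1 at 1.08 ± 0.0656 TPM in BPAF and 0.907 ± 0.275 TPM in DMSO. IFIT3 was the lowest, at 0.543 ± 0.158 TPM in BPAF and 0.763 ± 0.138 TPM in DMSO. LIPA (mean 943 counts) overlaps IFIT1, IFIT2 and IFIT3 on the opposite strand, so their levels are uncertain. Within 44.16 kb of chromosome 1 (78619922 to 78664078), IFI44 was at 5.41 ± 0.837 TPM in BPAF and 5.28 ± 1.09 TPM in DMSO, while IFI44L was at 0.0433 ± 0.0306 TPM in BPAF and 0.02 ± 0.0265 TPM in DMSO. On chromosome 21 (41361943 to 41459214) MX2 was at 1.47 ± 0.366 TPM in BPAF and 1.11 ± 0.335 TPM in DMSO, while MX1 was at 0.0667 ± 0.0289 TPM in BPAF and 0.0667 ± 0.0643 TPM in DMSO. Genes with and without the ISRE core as searched overlapped in level. The 18 genes with it ranged from 0.043 to 165 TPM in BPAF (median 9.14) and from 0.02 to 168.4 TPM in DMSO (median 10.3). The 13 without it ranged from 0.12 to 266.9 TPM in BPAF (median 16.6) and from 0.08 to 270.4 TPM in DMSO (median 13.9).

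The comparison of BPAF with DMSO asked whether the exposure moved these transcripts. Of the 38 genes with enough counts to be tested, 1 fell and 0 rose at an adjusted p under 0.05 (edgeR quasi-likelihood test, Benjamini-Hochberg over 15490 genes). That is 2.63% of the tested members, where 6.06% of all tested genes were called in either direction, 3.4% as lower and 2.65% as higher. DESeq2 without independent filtering and limma-voom each called the same gene, IFI16, where they called 4.07% and 5.73% of all genes. The unadjusted edgeR p was under 0.05 for 3 of the 38, 7.89%, against 19.9% of all tested genes. The groups did not overlap in CPM for 4 of the 38, 10.5% (MAVS higher, and IFI16, OAS3 and IFIT3 lower in BPAF), against 24.8% of all tested genes. The median log2 fold change (BPAF over DMSO) of the 38 was -0.020, and that of all tested genes 0.0019. It was -0.057 for the 16 tested genes with an ISRE core as searched (values from -0.457 to 0.182). For the 12 without it was 0.032 (values from -0.333 to 0.143). The 2 ranges overlapped widely, and the difference was not tested. The 12 include IFI16, OAS1, RIGI and IFI35, whose windows hold the core with a shorter gap. The members' values on TPM follow. The sign of the members' median depended on the scale: on log2(TPM + 1) it was 0.094, beside 0.078 for all genes, and 13 of the 22 genes with a value below 0 on counts had one above 0 on TPM.

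**Figure D2:**
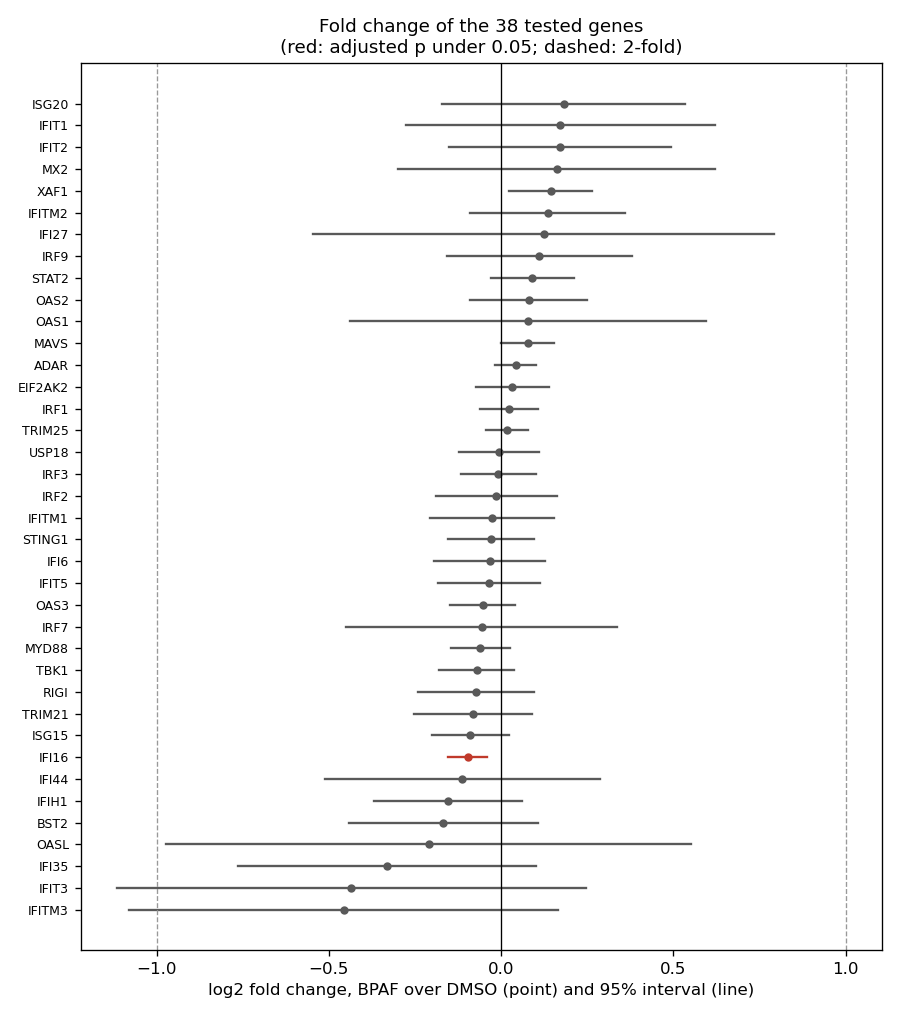
Log2 fold change (BPAF over DMSO, points) with its 95% interval (lines) for the 38 tested genes in order of value, from the edgeR fit; dashed lines mark 2-fold. IFI16, in red, is the gene with an adjusted p under 0.05, and the intervals of IFIT3 and IFITM3 are the only ones that cross a dashed line.

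For most of the list the edgeR fit to counts bounded the change closely. These bounds hold for that scale only, since the TPM values of some genes, IFI16 and TBK1 among them, fell outside their intervals. The estimates ran from -0.46 (IFITM3) to 0.18 (ISG20) on the log2 scale, with a median size of 0.080, against 0.088 for all tested genes. The 95% interval stayed inside a 2-fold change in either direction for 36 of the 38 genes and inside a 1.5-fold change for 30. It stayed inside a 1.2-fold change for 21. The intervals of IFIT3 and IFITM3 reached 2-fold lower. Those of MX2, IFI27, IFI35, IFIT1, OAS1 and OASL reached 1.5-fold on at least 1 side. These 8 genes averaged at most 3.29 CPM in BPAF and 4.16 CPM in DMSO.

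**Figure D3:**
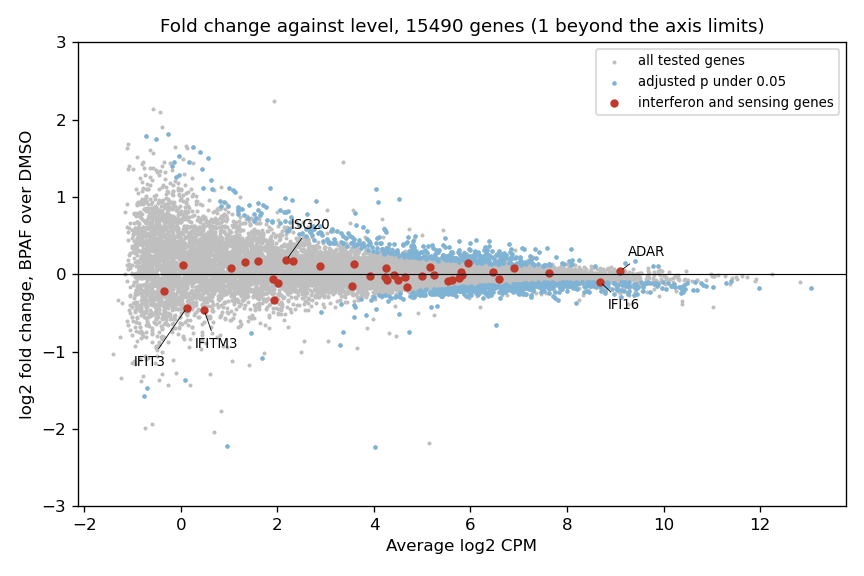
Log2 fold change (BPAF over DMSO) against average log2 CPM for 15490 tested genes (grey), those with an adjusted p under 0.05 (blue) and the 38 interferon and sensing genes (red). The red points lie within 0.46 of 0 on the log2 scale, and IFI16 is the red point that passed.

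Among the sensors and adaptors, IFI16 (ENSG00000163565, chromosome 1, 158999968 to 159055155) was the gene that fell. It had 396, 396 and 401 CPM in BPAF libraries, against 420.0, 422 and 434 CPM in DMSO libraries. The groups did not overlap, with all BPAF values lower, as was true of 12.8% of all tested genes. The log2 fold change was -0.097 ± 0.027 (SE), or 0.935-fold, with an edgeR adjusted p of 0.0403 (limma-voom 0.0366, DESeq2 without independent filtering 0.0461). All its deposited counts were whole numbers. The call did not hold when any 1 library was left out (edgeR adjusted p from 0.0513 to 0.179, log2 fold change from -0.11 to -0.085), nor with upper quartile scaling (0.0702). In TPM the groups overlapped, and on log2(TPM + 1) the log2 fold change was -0.019 (limma adjusted p = 0.771).

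MAVS, the mitochondrial adaptor of the RNA sensors (chromosome 20, 3846799 to 3876123), had 122, 123 and 125 CPM in BPAF and 117, 122 and 112 CPM in DMSO libraries. All BPAF values were above all DMSO values, as for 12% of tested genes, and the log2 fold change of 0.077 ± 0.037 did not pass (unadjusted p = 0.0475, edgeR adjusted p = 0.243). MYD88, the adaptor of Toll-like receptors, had 92.1, 91.7 and 97.8 CPM in BPAF and 95.7, 95.4 and 103 CPM in DMSO libraries, with overlapping groups (log2 fold change -0.060 ± 0.041, adjusted p = 0.467). RIGI, which encodes RIG-I, was at 6.42 ± 0.594 TPM in BPAF and 6.26 ± 0.364 TPM in DMSO, and IFIH1, which encodes MDA5, at 6.25 ± 0.669 TPM in BPAF and 6.47 ± 0.795 TPM in DMSO. Their log2 fold changes on counts were -0.072 ± 0.081 and -0.15 ± 0.10, neither past the threshold (edgeR adjusted p = 0.696 and 0.444). STING1 (-0.029 ± 0.060) and the kinase gene TBK1 (-0.071 ± 0.052) did not pass either. TBK1 showed how the deposited scales can part: BPAF replicate 1 had 51.9 TPM against 29.2 and 35.1 TPM in the other BPAF libraries and 32.0 to 33.9 TPM in DMSO, yet its CPM was 49.3, against 48.3 and 45.8 in the other BPAF libraries and 48.4 to 53.2 in DMSO. The sources used here do not say how TPM was calculated.

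**Figure D4:**
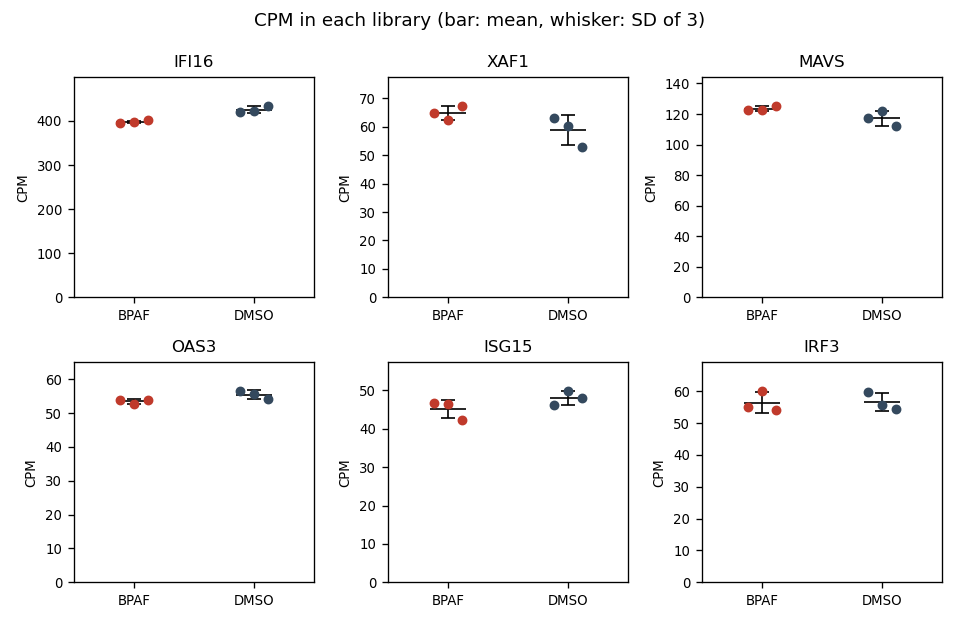
CPM in each of 3 BPAF (red, left) and 3 DMSO (blue-grey, right) libraries for 6 genes, with the mean (bar) and SD (whisker) and axes that start at 0. The points of IFI16, MAVS and OAS3 do not overlap between groups, those of XAF1, ISG15 and IRF3 do, and each group mean lies within 1.2-fold of the other.

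None of the 6 transcription factor genes passed in edgeR, DESeq2 without independent filtering or limma-voom. Those called 6.06%, 4.07% and 5.73% of all tested genes. The unadjusted edgeR p was under 0.05 for 0 of the 6, against 19.9% of all tested genes. So few genes cannot be told apart from these shares. IRF1, an activator that is itself induced by interferon gamma, had 89.6, 87.0 and 91.7 CPM in BPAF and 89.3, 84.9 and 90.0 CPM in DMSO libraries. IRF3, the factor phosphorylated by TBK1, had 55.0, 60.1 and 54.1 CPM in BPAF and 59.9, 55.6 and 54.4 CPM in DMSO libraries. Both pairs of groups overlapped, and the 95% intervals of the log2 fold change were -0.061 to 0.11 for IRF1 and -0.12 to 0.10 for IRF3. IRF7, which amplifies the response and is itself an interferon-stimulated gene, was low at 4.16 ± 1.45 TPM in BPAF and 3.72 ± 0.104 TPM in DMSO. STAT2 (log2 fold change 0.090 ± 0.058), IRF9 (0.11 ± 0.13), IRF2 (-0.014 ± 0.084) and IRF7 (-0.056 ± 0.19) did not pass, and the smallest edgeR adjusted p of the 6 factors was 0.425. IRF9 is overlapped on the same strand by the protein-coding gene ENSG00000259529, which had a mean of 457.7 counts, and its deposited counts were not whole, so its level is uncertain. IRF1 and IRF3 are overlapped on the opposite strand by other genes: IRF1 by the protein-coding ENSG00000283782 (mean 1648 counts) and by IRF1-AS1 (682.6), and IRF3 by BCL2L12 (896.9). Reads of such pairs cannot be told apart without a stated strand setting. The same limit holds in other groups for IFIT1, IFIT2 and IFIT3 (opposite LIPA, mean 943 counts), EIF2AK2 (GPATCH11, 431.6) and TRIM25 (DGKE, 1280).

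Among the antiviral effectors, XAF1, which antagonises an inhibitor of apoptosis, had 65.0, 62.2 and 67.3 CPM in BPAF and 63.1, 60.1 and 52.9 CPM in DMSO libraries. Its groups overlapped, and the log2 fold change of 0.14 ± 0.057 did not pass (unadjusted p = 0.0223, edgeR adjusted p = 0.162). The value was 0.072 without DMSO replicate 3, the library with the lowest level, and 0.28 on log2(TPM + 0.1). BST2, or tetherin, which holds budding virions at the cell surface, had 26.9, 24.7 and 21.3 CPM in BPAF and 28.1, 30.8 and 22.8 CPM in DMSO libraries, a log2 fold change of -0.17 ± 0.12 with overlapping groups. With 1 library left out the value for BST2 lay between -0.28 (without DMSO replicate 3, edgeR adjusted p = 0.0804) and -0.075 (without DMSO replicate 2, edgeR adjusted p = 0.781). ISG20, an exonuclease, and MX2, which restricts HIV, had values of 0.18 ± 0.17 and 0.16 ± 0.22 on the log2 scale (edgeR adjusted p = 0.614 and 0.761).

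In the IFI and IFIT family 0 of 8 tested genes passed in edgeR, DESeq2 without independent filtering or limma-voom. Of all tested genes 6.06%, 4.07% and 5.73% did. The unadjusted edgeR p was under 0.05 for 0 of the 8, against 19.9% of all tested genes. The family is too small to be told apart from these shares. IFI6, a mitochondrial and endoplasmic reticulum protein, had 17.7, 18.9 and 19.0 CPM in BPAF and 20.4, 17.8 and 18.6 CPM in DMSO libraries. IFIT5 had 23.6, 26.2 and 24.2 CPM in BPAF and 26.1, 26.6 and 23.04 CPM in DMSO libraries. In both the groups overlapped, and the log2 fold changes were -0.034 ± 0.077 and -0.035 ± 0.071. The other members of the family had wider errors: IFI27 was at 0.12 ± 0.32, IFI35 at -0.33 ± 0.21 and IFI44 at -0.11 ± 0.19 on the log2 scale. IFIT3 had 1.06, 0.588 and 0.871 CPM in BPAF and 1.19, 1.12 and 1.12 CPM in DMSO libraries. Its groups did not overlap, on only 12 to 26 counts a library, and the log2 fold change of -0.44 ± 0.33 did not pass (edgeR adjusted p = 0.511). The counts of IFIT3 were not all whole, and LIPA overlaps it on the opposite strand. IFIT1 and IFIT2, in the same cluster, had values above 0 (0.17 ± 0.22 and 0.17 ± 0.15), also short of the threshold, and the cluster's summed level was 33.8 ± 1.12 CPM in BPAF and 33.7 ± 2.99 CPM in DMSO.

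The IFITM proteins sit in membranes and hinder viral fusion, and their genes lie together on chromosome 11 (307631 to 327537). IFITM1 had 14.0, 15.5 and 14.9 CPM in BPAF and 15.0, 14.1 and 16.2 CPM in DMSO libraries, and IFITM2 had 14.3, 11.3 and 11.8 CPM in BPAF and 12.4, 11.5 and 10.2 CPM in DMSO libraries. IFITM3 was low in counts, at 1.11, 1.32 and 0.871 CPM in BPAF and 1.56, 1.80 and 1.17 CPM in DMSO libraries, and its log2 fold change of -0.46 ± 0.30 did not pass (edgeR adjusted p = 0.434). None of the 3 had whole counts, they are close paralogues, and IFITM1 and IFITM2 overlap on the same strand, so the split between them is uncertain. The log2 fold changes of IFITM1 and IFITM2 were -0.026 ± 0.086 and 0.14 ± 0.11, with overlapping groups and neither past the threshold. The sum of the 3 was 28.4 ± 0.942 CPM in BPAF and 27.9 ± 0.822 CPM in DMSO.

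The OAS, PKR and ADAR group gave 0 calls for 6 tested genes in edgeR, DESeq2 without independent filtering and limma-voom. Of all tested genes 6.06%, 4.07% and 5.73% were called. The unadjusted edgeR p was under 0.05 for 0 of the 6, against 19.9% of all tested genes. This group is also too small to be told apart from these shares. ADAR had 549, 551 and 571 CPM in BPAF and 542, 553 and 529.8 CPM in DMSO libraries, with overlapping groups and a 95% interval of -0.017 to 0.10 on the log2 scale. OAS3, which makes the oligoadenylate that activates RNase L, had 53.8, 52.7 and 53.8 CPM in BPAF and 56.5, 55.7 and 54.1 CPM in DMSO libraries. Its groups did not overlap, with 53.8 CPM the highest value in BPAF and 54.1 CPM the lowest in DMSO libraries, and the log2 fold change of -0.054 ± 0.046 did not pass (edgeR adjusted p = 0.570). On the log2(TPM + 1) scale OAS3 was at 0.074. OAS1 (0.077 ± 0.25), OAS2 (0.079 ± 0.082) and OASL (-0.21 ± 0.37) did not pass either. EIF2AK2, which encodes the kinase PKR that halts translation, stood at 56.4 ± 0.533 CPM in BPAF and 55.1 ± 3.65 CPM in DMSO. OAS1, OAS2 and OAS3, side by side on chromosome 12 (112906777 to 113011723), summed to 74.9 ± 0.722 CPM in BPAF and 75.8 ± 2.91 CPM in DMSO.

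In the ubiquitin-like and TRIM group 0 of 4 genes passed in edgeR, DESeq2 without independent filtering or limma-voom. Of all tested genes 6.06%, 4.07% and 5.73% did. The unadjusted edgeR p was under 0.05 for 0 of the 4, against 19.9% of all tested genes. Again the genes are too few to be told apart from these shares. ISG15, whose promoter run of overlapping cores is shown above, had 46.8, 46.3 and 42.4 CPM in BPAF and 46.2, 49.8 and 48.0 CPM in DMSO libraries, with overlapping groups (log2 fold change -0.089 ± 0.053, edgeR adjusted p = 0.375). TRIM25, the ligase that ubiquitinates RIG-I, had 202, 195 and 199 CPM in BPAF and 196, 198 and 196 CPM in DMSO libraries, and its 95% interval was -0.045 to 0.077. TRIM25 shares its strand and part of its span with C17orf67 (mean 538 counts). USP18, which removes ISG15 and restrains the interferon receptor, was at 37.9 ± 1.2 CPM in BPAF and 38.1 ± 1.85 CPM in DMSO. TRIM21, a cytosolic antibody receptor, was at 21.8 ± 1.75 CPM in BPAF and 23.1 ± 2.48 CPM in DMSO. Their log2 fold changes were -0.0063 ± 0.056 and -0.081 ± 0.082. Summed over all 42 genes the level was 2118 ± 15.0 CPM in BPAF and 2128 ± 22.1 CPM in DMSO.

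The other genes of the pathway were read from lists of 104 symbols. Of 72 tested, 1 rose and 0 fell in edgeR, 1.39%, against 6.06% of all tested genes called in either direction and 2.65% as higher. The unadjusted p was under 0.05 for 7 of the 72, against 19.9% of all tested genes, and the median log2 fold change was -0.012, against 0.0019. None of 9 receptor and kinase genes, 9 negative regulators or 20 other sensing genes passed in edgeR, DESeq2 without independent filtering or limma-voom. Those called 6.06%, 4.07% and 5.73% of all tested genes, and each list is too small to be told apart from these shares. The unadjusted p was under 0.05 for IL10RB (log2 fold change -0.22 ± 0.10), a receptor chain shared with interleukin 10, for PTPN2 (-0.082 ± 0.038), a phosphatase that acts on JAK kinases, for RNASEH2A (-0.095 ± 0.040), a subunit of RNase H2, and for ZNFX1 (0.12 ± 0.050), a helicase that senses RNA. The smallest edgeR adjusted p of these 3 lists was 0.179. Of 34 other interferon-stimulated genes TRIM14, an adaptor of MAVS signalling, rose to 117, 125 and 121 CPM in BPAF libraries, against 109, 111 and 112 CPM in DMSO libraries. Its log2 fold change was 0.13 ± 0.036 (edgeR adjusted p = 0.0355). The call did not hold with any 1 library left out (edgeR adjusted p from 0.057 to 0.139). It did not hold in DESeq2 (adjusted p = 0.0727, or 0.0929 without independent filtering) or on TPM (limma adjusted p from 0.127 to 0.304). TRIM14 passed in 6 of the 17 alternatives. SAMD9 (-0.14 ± 0.051) and GBP1 (-0.13 ± 0.059), both interferon-induced, had unadjusted p-values under 0.05 and did not pass (edgeR adjusted p = 0.118 and 0.205).

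Across the 38 tested genes the median coefficient of variation of CPM was 5.43% in BPAF and 6.95% in DMSO libraries. The same measure on TPM was 7.14% in BPAF and 11.4% in DMSO libraries. The 95% intervals above come from counts, the scale with the smaller spread.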

How the data were processed

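Polyadenylated RNA was made into stranded paired-end libraries and read on an Illumina NovaSeq instrument, per the labels' protocols. Read trimming with cutadapt, alignment with HISAT2, counting with featureCounts and quality reports with FastQC are listed, per the submitters' processing notes, beside the builds GRCh38 and hg38. The deposited estimated counts per gene are not normalized and partly have decimals (tolerance 1e-09) of unstated origin. The deposited TPM values are the authors' own, and their calculation is not stated. Counts were not whole in at least 1 library for 28 of the 42 genes (25 of the 38 tested, against 64.4% of all tested genes), so shared reads may enter. A strand setting for counting is likewise not stated in the sources read here. The 192 rows without an Ensembl identifier held 0.258% of BPAF and 0.248% of DMSO counts.

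Symbols came from a table of Ensembl identifiers and coordinates from GENCODE v29. Counts were rounded, filtered with filterByExpr (15490 genes kept), scaled by TMM and tested with edgeR 4.0.16 (R 4.3.3; robust quasi-likelihood, no covariate), with Benjamini-Hochberg adjustment over all tested genes and a threshold of 0.05. SE is the size of the log2 fold change over the square root of F. CPM is TMM-scaled, and values are given with the SD of 3 libraries. The tests were checked on simulated counts. Of the 42, values in every library are given for genes with an unadjusted p under 0.05, genes whose groups do not overlap in CPM and the 2 highest in TPM of each role group. Those of IFITM3, TBK1 and the 4 untested genes were added after their values were seen. From the other lists, genes with an unadjusted p under 0.05 are named. The genes and lists were chosen with earlier results of these data known. Alternatives covered scaling (RLE, upper quartile), filters (none, or at least 10 counts in 3 libraries), DESeq2 1.42.0, limma-voom 3.58.1, limma on log2(TPM + 1 or 0.1), a replicate block and each library left out. Libraries of a group were not identical: chi-square per degree of freedom was 2.38 to 3.03 between BPAF and 2.66 to 4.08 between DMSO libraries. Between the groups it was 3.85 to 7.69. DMSO replicate 3 stood furthest out, at 3.29 and 4.08 from the other DMSO libraries and 6.36 to 7.69 from BPAF libraries. DMSO replicate 2 was nearer to BPAF replicate 2 (3.85) than to DMSO replicate 3 (4.08). Nothing in the labels says whether replicates came from separate passages or days, so p-values measure only the spread between these samples, which may be technical.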

Additional observations from a re-analysis of the deposited data

How the results depend on the processing

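Of 646 values of the 38 tested genes over 17 alternatives, 572 kept their direction and, in the 565 of these with an adjusted p, their side of the threshold. DESeq2 with independent filtering gave no adjusted p for 7 genes (MX2, IFI27, IFIT1, IFIT3, IFITM3, OAS1 and OASL). Of the other values, 63 changed sign and 11, all of IFI16, no longer passed. No value passed in an alternative and not in the edgeR test as reported. IFI16 passed in 6 of the 17. The list gave 0 calls under upper quartile scaling, on the 3 TPM scales, with a replicate block, and with each library left out (0 to 0). Its median log2 fold change was 0.094 on log2(TPM + 1), with or without a filter, and 0.099 on log2(TPM + 0.1); with 1 library left out it lay between -0.045 and 0.0058.

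All genes gave 938 calls (411 higher, 527 lower), 1291 without a filter, 690 with DESeq2 (631 without independent filtering), and 1, 2 and 0 on log2(TPM + 1), log2(TPM + 0.1) and log2(TPM + 1) without a filter. Upper quartile scaling gave 461 higher and 400.0 lower, with a median of 0.013. Leaving out 1 library gave 322 to 861, the fewest without BPAF replicate 1. There were 392 without BPAF replicate 3, and 482 when DMSO replicate 1 was left out. Same-numbered libraries did not deviate together (correlations 0.0010, -0.043 and 0.014, and 1 of 6 libraries correlated best with its own number), so the numbers were not taken as pairs. With the replicate block there were 826 calls and a median over the list of -0.017.

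Signs changed on TPM in 13 genes, with log2 fold changes at pseudocounts 1 and 0.1 of 0.037 and 0.045 (IFI44), 0.040 and 0.040 (IFI6), 0.11 and 0.12 (IFIT5), 0.0054 and 0.0055 (IFITM1), 0.097 and 0.10 (IRF2), 0.11 and 0.11 (IRF3), 0.088 and 0.095 (IRF7), 0.041 and 0.042 (MYD88), 0.074 and 0.079 (OAS3), 0.030 and 0.034 (RIGI), 0.19 and 0.19 (TBK1), 0.0098 and 0.010 (TRIM21), and 0.091 and 0.094 (USP18). The TPM values of TBK1, IRF3, OAS3 and MYD88 lay above their 95% intervals from counts, whose upper ends were 0.038, 0.10, 0.041 and 0.026. Upper quartile scaling put IRF3 at 0.0023 and USP18 at 0.0045. With 1 library left out the sign changed in 15 genes, whose values ran from -0.0100 to 0.086 (EIF2AK2), -0.29 to 0.049 (IFI44), -0.079 to 0.023 (IFI6), -0.049 to 0.33 (IFIT1), -0.076 to 0.026 (IFITM1), -0.0065 to 0.041 (IRF1), -0.11 to 0.077 (IRF2), -0.057 to 0.033 (IRF3), -0.18 to 0.097 (IRF7), -0.018 to 0.25 (MX2), -0.095 to 0.28 (OAS1), -0.11 to 0.0056 (RIGI), -0.069 to 0.0046 (STING1), -0.15 to 0.00086 (TRIM21) and -0.040 to 0.027 (USP18). The other 23 genes kept their sign with 1 library left out, but 20 of them moved by over 1.5 times, among them BST2 (-0.28 to -0.075), IFITM2 (0.023 to 0.20) and IRF9 (0.0060 to 0.22); IFI16, OAS3 and IFITM3 did not. None of the genes whose sign changed passed the test, and the cause of the changes was not tested. The intervals of IFIT3 and IFITM3 reach 2-fold lower, and 4 genes had too few counts to be tested.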
